A study of Mus musculus with 24 samples.

Results

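The peaks described here are regions of open chromatin in striatal neurons. They were chosen because their mean accessibility was higher in Q140 knock-in mice than in wild-type mice. In mice lacking Msh3, the group means showed little or no such gain with the same knock-in allele. The choice used the group means of a table of 147020 peaks, with 2 differences. D1 is the log2 ratio of mean CPM (counts scaled to the library total) in Q140 over WT animals, and D2 is the same ratio of Msh3-/- X Q140 over Msh3-/- animals, both with 0.5 CPM added to each mean. A peak was kept if it lay on chromosomes 1 to 19, had a mean of at least 2 CPM over all 24 libraries, a D1 of at least 0.7 and a D2 of at most 0.2 times its D1. This gave 455 peaks, of 2027 gained peaks with a D1 of at least 0.7, of 111315 peaks that were autosomal and passed the CPM minimum. In the same group means, the other 1572 gained peaks kept more of the gain in animals without Msh3. Peaks chosen in animals of a single sex met these limits in the other sex no more often than other gained peaks, as given below.

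The animals were C57BL/6 mice aged 12 months. There were 4 genotypes with 6 animals each, 3 females and 3 males: wild type (WT), heterozygous for the Q140 knock-in (Q140), homozygous for loss of Msh3 (Msh3-/-), and homozygous for loss of Msh3 with the heterozygous Q140 knock-in (Msh3-/- X Q140). Nuclei from frozen striatum were labelled for NeuN, a neuronal nuclear protein, sorted by flow cytometry, and 50000 nuclei per sample went into ATAC-seq, in which a transposase inserts adapters where DNA is accessible. The labels do not say how the Msh3 allele was made or which animals were littermates, and the p-values below therefore measure the spread between these 24 samples only.

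The Q140 allele is a model of Huntington's disease, which is caused by an expanded CAG repeat in the huntingtin gene Htt. The repeat lengthens further with age in striatal neurons, and MSH3, a DNA mismatch-repair protein, is needed for much of that lengthening. Many developmental transcription factor genes are held closed in neurons by Polycomb complexes.

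The 455 peaks overlapped 13 RefSeq promoter windows, taken here as the 200 bases before a start, and 4 are printed because their peaks are at starts of developmental or cell cycle genes or of a Polycomb-group gene. Each line gives 1 such window (GRCm38.p6), 5′ to 3′ on the gene's strand, with matches to the motifs searched in capitals. Onecut1 encodes a cut-homeodomain transcription factor (chr9:74861721-74861920, plus strand), Emx2 a homeobox factor of forebrain development (chr19:59458490-59458689, plus strand), Sfmbt2 a Polycomb-group protein with MBT domains (chr2:10372236-10372435, plus strand), and Cdkn2b an inhibitor of cyclin-dependent kinases (chr4:89311033-89311232, minus strand).
Onecut1: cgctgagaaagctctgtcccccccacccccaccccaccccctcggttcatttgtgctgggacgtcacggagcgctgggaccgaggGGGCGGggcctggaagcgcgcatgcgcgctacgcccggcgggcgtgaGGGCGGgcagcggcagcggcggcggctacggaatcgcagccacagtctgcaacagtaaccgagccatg
Emx2: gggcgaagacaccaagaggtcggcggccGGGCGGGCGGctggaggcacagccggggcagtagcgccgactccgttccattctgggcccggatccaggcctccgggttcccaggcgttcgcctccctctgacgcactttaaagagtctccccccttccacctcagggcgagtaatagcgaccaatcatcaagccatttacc
Sfmbt2: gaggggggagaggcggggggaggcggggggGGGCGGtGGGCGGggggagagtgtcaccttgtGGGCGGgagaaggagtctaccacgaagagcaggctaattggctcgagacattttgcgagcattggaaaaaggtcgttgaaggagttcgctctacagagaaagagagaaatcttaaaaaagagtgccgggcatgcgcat
Cdkn2b: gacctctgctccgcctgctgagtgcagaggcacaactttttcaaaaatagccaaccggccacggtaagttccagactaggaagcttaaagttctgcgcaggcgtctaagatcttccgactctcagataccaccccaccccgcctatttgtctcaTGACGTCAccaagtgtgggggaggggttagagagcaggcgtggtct

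The capitals in the Onecut1, Emx2 and Sfmbt2 sequences mark the SP/KLF box GGGCGG on either strand, and those in the Cdkn2b sequence mark the cAMP response element TGACGTCA. The Sfmbt2 peak (from chr2:10372305) covers only 131 bases of its window, and the boxes in that window lie before the peak. Motifs were counted over whole windows, also where a peak covers a part. The SP/KLF box was present in 5 of the 13 windows and in 31.3% of 32505 RefSeq windows of the same length. The cAMP response element was present in 1 of the 13 windows and in 1.48% of all windows. The motifs searched, on both strands and counted separately where they overlap, were CRE as TGACGTCA, AP-1 as TGANTCA, EGR as GCGGGGGCG, SP/KLF box as GGGCGG, E-box as CAGCTG, E-box as CATATG, E-box as CACGTG, homeobox as TAATTA, Meis as TGACAG, Onecut as ATCGAT, T-box as AGGTGT, ETS as CCGGAAGT, NRSF/REST as TTCAGCACC, SOX as ACAATG, YY1 as AANATGGCG, and by name alone CTCF, MEF2, NF1, RFX, RAR. The median GC content was 54.5% in the 13 windows and 53.0% in all windows. Most of the 455 peaks lie far from any start, and their own bases were not analysed here.

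Libraries held 4372251 to 11736557 counts, and the median count per peak of the set and library was 25 (5th to 95th percentile 9 to 76). Promoter peaks of striatal projection neuron genes were open in every library: 33 of 43 listed genes had one, and their summed level was 752 to 1161 CPM, with no peak at 0. At the targeted genes the promoter peaks varied little: that of Msh3 (chr13:92354380-92355482) had medians of 67.9 to 71.3 CPM in the 4 groups, and that of Htt (chr5:34760964-34762717) 42.4 to 44.8 CPM. A promoter peak cannot check a deletion or a repeat allele, so these values do not test the genotype labels. In the library labelled Q140 F2, 1.47% of counts lay on chromosome X, while the 11 remaining female libraries had 1.72% to 1.94% and the males 1.49% to 1.59%. In Msh3-/- X Q140 M1, 12.7% of counts lay in its 10 highest peaks, against 2.52% to 6.82% in the other libraries. Without both libraries the rule chose 323 peaks, 275 of them among the 455.

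The 455 peaks were mostly weak regions. Their median D1 was 0.84 (interquartile range 0.75 to 0.98, highest 1.72) and their median D2 was 0.09, with 109 peaks below 0. These are the values that chose the peaks and are given as a description. The median peak stood at 2.24 CPM in WT, 4.68 in Q140, 2.88 in Msh3-/- and 2.98 in Msh3-/- X Q140 animals, while the median of all eligible peaks was 4.43, 4.48, 4.39 and 4.39 CPM in the same order. The mean of log2(CPM + 0.5) over the set was 1.48 to 1.67 in WT, 2.34 to 2.55 in Q140, 1.77 to 1.89 in Msh3-/- and 1.69 to 2.11 in Msh3-/- X Q140 animals. All 6 Q140 animals were above all 18 others. Of the Msh3-/- X Q140 animals, F1, F2, F3 and M3 (1.90 to 2.11) were above every Msh3-/- animal. M2 (1.87) was within the Msh3-/- range. M1 (1.69), the library with 12.7% of counts in its 10 highest peaks, was below that range. The WT mean was the lowest of the 4 groups in 431 of 455 peaks.

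**Figure D1:**
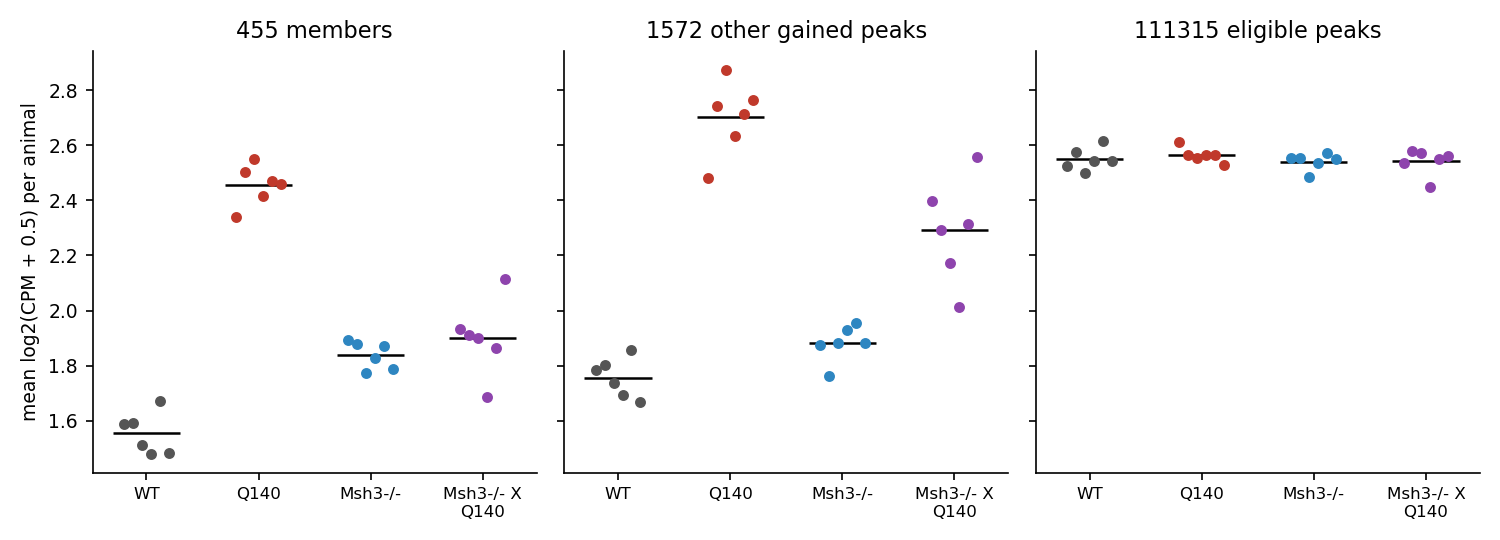
Mean log2(CPM + 0.5) per animal, by genotype, over the 455 chosen peaks, the 1572 other gained peaks and the 111315 eligible peaks; points are animals and lines are group means. Among the chosen peaks Msh3-/- X Q140 M1 (1.69) lies below the Msh3-/- animals (1.77 to 1.89), M2 lies within their range and the others lie above it (up to 2.11). Among the other gained peaks all Msh3-/- X Q140 animals are higher than the Msh3-/- animals (2.01 to 2.56 against 1.76 to 1.96).

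Promoter peaks of cortical glutamatergic marker genes (4 of 13 genes had one, none at 0) summed to 17.6 to 24.0 CPM in WT, 23.2 to 28.6 in Q140, 20.1 to 25.4 in Msh3-/- and 16.9 to 28.9 in Msh3-/- X Q140 animals. Their part in the set's pattern was not tested. No peak of the set was nearest to a gene of that list or of the astrocyte, oligodendrocyte, oligodendrocyte precursor, microglia, endothelial and pericyte or striatal interneuron lists. These lists had 25 to 135 eligible peaks each, too few for the absence to be read against the 0.409% of all eligible peaks in the set. In sorted nuclei as in tissue, a change in which neurons were collected and a change of accessibility within neurons cannot be told apart in these bulk libraries.

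**Figure D2:**
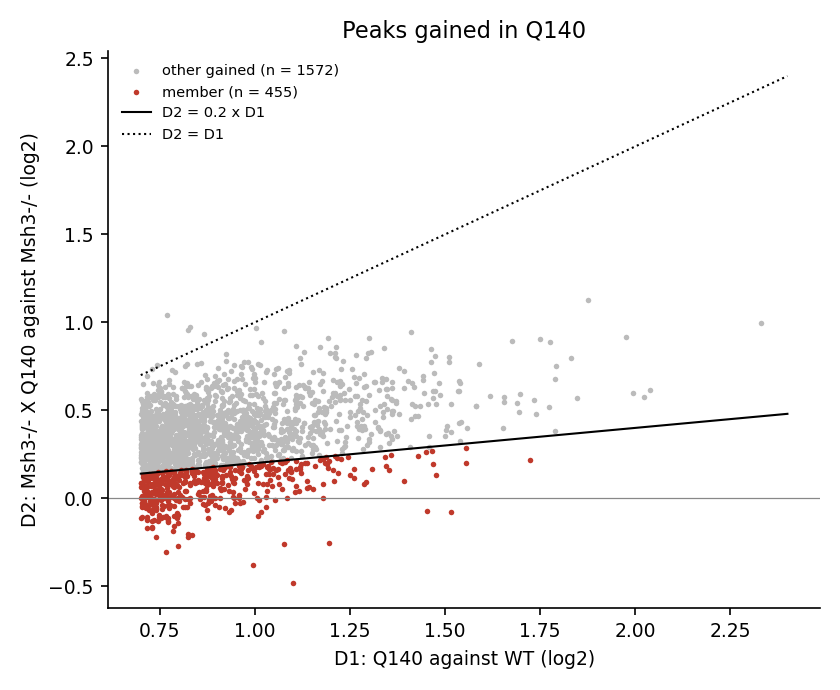
D1 (Q140 against WT, log2) and D2 (Msh3-/- X Q140 against Msh3-/-, log2) of all 2027 gained peaks; the solid line is the limit of 0.2 times D1 and the dotted line marks equal values. The 455 chosen peaks (red) are the lower edge of 1 continuous cloud, with no gap to the other 1572 (grey).

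Peaks on either side of a limit had nearly the same values. Just inside the D1 limit were peaks nearest to 4933406K04Rik and Clic6 (D1 0.70 in both), and just outside it were peaks nearest to Lrrtm1 and Gphn (D1 0.70 in both after rounding). Just inside the D2 limit were peaks nearest to Trib2 (D2 0.21) and 2210408F21Rik (D2 0.22), and just outside were Necab1 (D2 0.29 with a D1 of 1.46) and Mettl15 (D2 0.20 with a D1 of 0.98).

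Developmental regulators that are Polycomb targets in neurons made up the gene group with the most members. The list had 575 eligible peaks, of which 25 were gained. Of those, 14 were in the set, nearest to 13 genes: Onecut1 with 2 peaks, and Hoxc8, Emx2, Irx5, Nkx2-3, Gata4, Gbx2, Gata3, Cdkn2b, Zic1, Tlx1, Hoxa3 and Pax2. Only 2 of the 14 lay within 1 kb of a start. The peaks nearest to Gata3, Gata4 and Pax2 lay 258, 75.7 and 62.2 kb from their starts. These 14 are 56.0% of the list's gained peaks, against 22.4% of all gained peaks. The list was chosen with earlier results of these data known, so the shares are descriptions. Over all 575 peaks the list's median D1 was 0.11 and its median D2 -0.04, against 0.03 and 0.00 over all eligible peaks. These genes encode transcription factors of body patterning and organ formation, apart from the cell cycle inhibitor Cdkn2b. In 11 of the 14 peaks all Q140 animals were above all WT animals, and in 8 they were above all 18 other animals. The rule had chosen these peaks for a high Q140 mean, so nothing is read from the 3.07% and 0.261% of eligible peaks that met those 2 conditions. The first was met by 71.4% of the whole set and 73.7% of other gained peaks, and the second by 17.1% and 8.46%.

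The Onecut1 promoter peak (chr9:74861498-74862162, annotated promoter, 91 bases before the start) had the highest Q140 level of these. Its CPM was 3.02, 3.96 and 4.34 (lowest, median and highest animal) in WT, and 10.5, 11.9 and 13.8 in Q140. It was 3.08, 4.34 and 6.90 in Msh3-/- and 2.51, 4.35 and 5.79 in Msh3-/- X Q140. Every Q140 animal was above every other animal, and the other 3 groups overlapped. D1 was 1.51 and D2 -0.08. A second Onecut1 peak lay 1.66 kb away in an intron, annotated to a CpG island (chr9:74863359-74863624, D1 1.10, D2 -0.48), and its Msh3-/- X Q140 animals (0.502 to 1.79 CPM) all lay below its Q140 animals (2.92 to 6.13 CPM).

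Hoxc8, a Hox gene of body-axis patterning, had an intergenic peak 9.07 kb from its start (chr15:102999076-103000139). Its CPM was 3.67 to 6.36 in WT, 9.33 to 13.9 in Q140, 3.65 to 7.55 in Msh3-/- and 3.09 to 4.92 in Msh3-/- X Q140 animals. Again the Q140 animals stood clear of all others, and the Msh3-/- X Q140 mean (4.22 CPM) was under the Msh3-/- mean (5.14 CPM). At Emx2 the peak of the developmental list lay 14.4 kb from the start (chr19:59472763-59473318). It had 2.34 to 5.20 CPM in WT and 6.97 to 9.78 in Q140 animals. In Msh3-/- animals it had 3.21 to 5.72 CPM, and in Msh3-/- X Q140 animals 3.09 to 6.06. Of the set, 2 further peaks were annotated to Emx2os, the antisense neighbour of Emx2, 1.03 kb from each other. The one at chr19:59458125-59458897 (D1 0.85, D2 0.10) covers the Emx2 promoter window printed above. Cdkn2b had its peak in the 5′ UTR of exon 1 (chr4:89310481-89311227), with 4.29 to 6.39, 7.83 to 11.4, 3.83 to 6.31 and 3.26 to 6.08 CPM in WT, Q140, Msh3-/- and Msh3-/- X Q140 animals.

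The remaining members of this list ranged more widely. Irx5 (chr8:92368572-92369257, D1 1.19), Nkx2-3 (chr19:43614584-43615020, D1 1.12, in exon 2) and Gata4 (chr14:63320718-63321156, D1 1.04) had D2 between 0.16 and 0.23. Gbx2, Gata3, Zic1, Tlx1, Hoxa3 and Pax2 had D1 between 0.70 and 0.87 and D2 between -0.03 and 0.14. At Gata4 D2 was -0.31 in the females and 0.70 in the males.

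**Figure D3:**
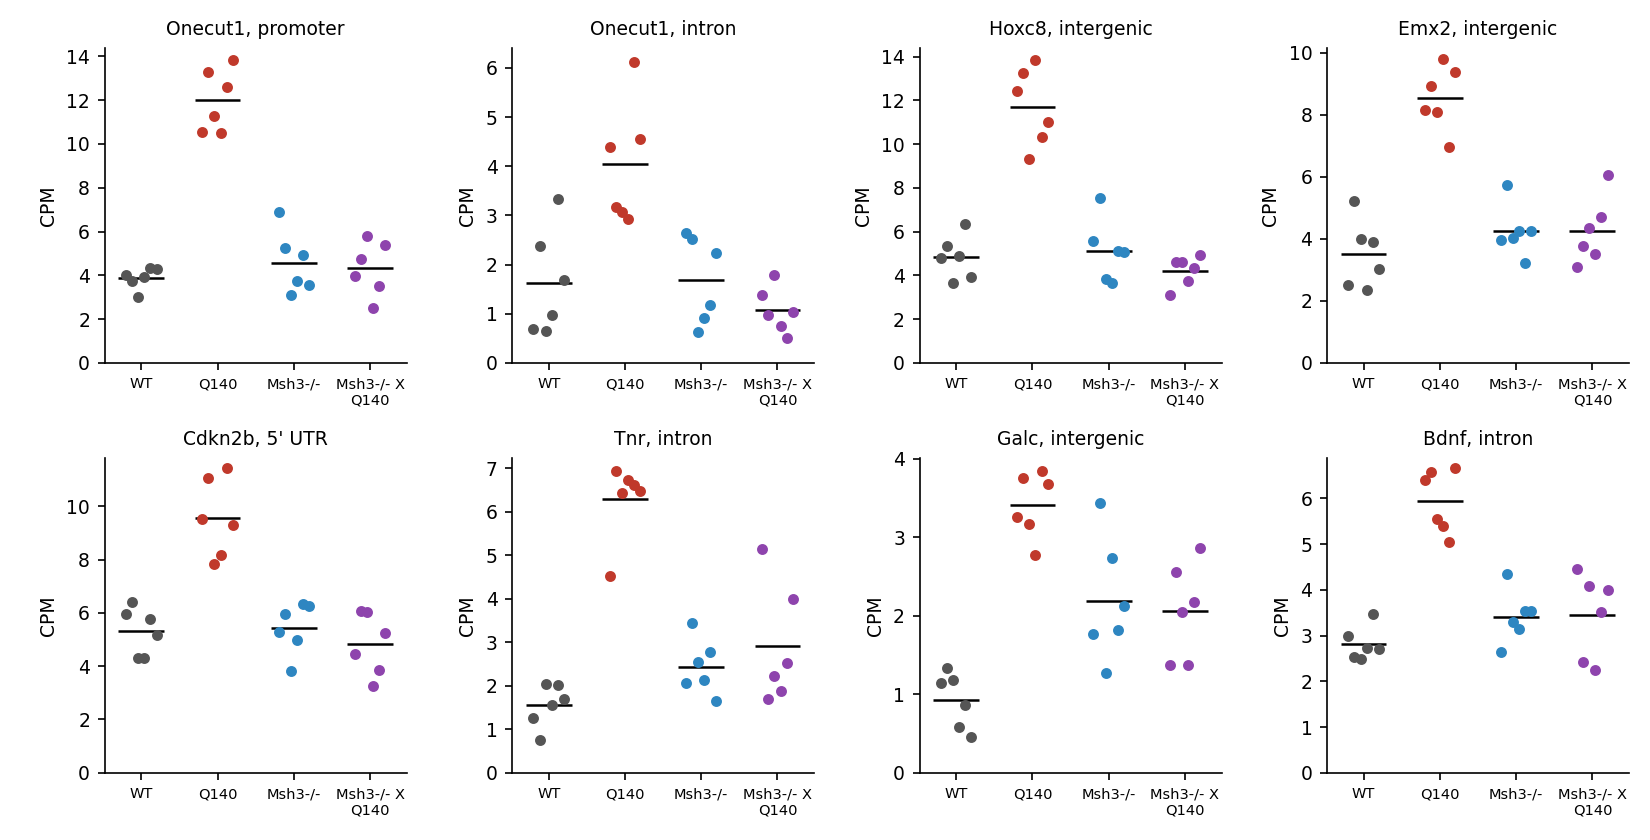
CPM of 8 chosen peaks by genotype; each point is 1 animal and each line a group mean. At the Onecut1 promoter, Hoxc8, Emx2 and Cdkn2b the Q140 animals are above every other animal; at Tnr a single Msh3-/- X Q140 animal (5.15 CPM) lies above the lowest Q140 animal (4.52 CPM).

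CpG islands held 10 peaks of the set (2.20%), against 0.318% of the other gained peaks and 2.14% of eligible peaks. Of these, 5 belonged to the list above (Gbx2, Pax2, Hoxa3, Zic1 and the second Onecut1 peak). Sfmbt2, whose promoter sequence is printed above, had 2 of them and 1 further chosen peak close by. The first (chr2:10372305-10373138) stood at 4.07 ± 0.84 CPM in WT, 8.09 ± 0.64 in Q140, 3.87 ± 0.48 in Msh3-/- and 4.42 ± 0.88 in Msh3-/- X Q140 animals (mean ± SD, n = 6). The predicted gene Gm26688 had the peak of lowest D2 after Onecut1 (chr13:40722641-40723512, D1 1.00, D2 -0.38). Its means were 9.48 ± 0.99, 19.4 ± 3.04, 8.32 ± 1.16 and 6.27 ± 0.75 CPM in WT, Q140, Msh3-/- and Msh3-/- X Q140 animals, with the last mean under that of WT.

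The Q140 against WT difference and the limit on the Msh3-/- X Q140 against Msh3-/- difference chose the peaks. The counts of edgeR calls are therefore descriptions from which nothing is read. With edgeR's quasi-likelihood test and a Benjamini-Hochberg adjusted p under 0.05, 454 of 455 peaks were called higher in Q140 than in WT, against 4.2% of 146155 peaks tested. Lower in Msh3-/- X Q140 than in Q140 were 104, against 0.219% of all peaks, and in 116 the 2 groups did not overlap, against 0.525% of eligible peaks. Without the library labelled Q140 F2 the 104 became 52, without Msh3-/- X Q140 M1 they became 49, and without both 22. None was called higher in Msh3-/- X Q140 than in Msh3-/- (0.0233% of all peaks), by edgeR or DESeq2, and 0 of 455 had an unadjusted p under 0.05 in that direction. None was called higher in Msh3-/- than in WT (0.00684%), by either tool, with 145 at an unadjusted p under 0.05. Higher in Msh3-/- X Q140 than in WT were 8 (0.252%), or 18 without Msh3-/- X Q140 M1. Of the 104, 10 were peaks of the developmental list.

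The interaction, which asks whether the Q140 difference is smaller without Msh3, used the same group means and is also a description. It called 11 peaks of the set, of 19 called in that direction among all peaks (0.013%). Onecut1 (promoter), Hoxc8, Emx2, Tnr, Galc, Cyp26b1 (an enzyme that degrades retinoic acid), 5031434C07Rik, Gm26688, Nell1os, Cpxm2 and Gatb were the 11. The log2 interaction was -1.63 ± 0.24 (SE) at the Onecut1 promoter and -1.47 ± 0.22 at Hoxc8. It was -1.85 ± 0.35 at Galc and -1.71 ± 0.33 at Tnr. The count was 22 with DESeq2 and 4 without the library labelled Q140 F2, 4 without Msh3-/- X Q140 M1 and 4 without both.

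Outside the developmental list, the largest D1 was at Tnr, which encodes tenascin R, an extracellular matrix protein of perineuronal nets. The peak lay in intron 1 (chr1:159568918-159569369), with 0.743, 1.62 and 2.05 CPM in WT and 4.52, 6.54 and 6.93 in Q140. It had 1.65, 2.34 and 3.43 CPM in Msh3-/- and 1.70, 2.36 and 5.15 in Msh3-/- X Q140, so the last group reached into the Q140 range. Galc encodes a lysosomal galactosylceramidase, and its peak lay 292 kb from its start (chr12:97966816-97967176). Its CPM was 0.450 to 1.34 in WT, 2.77 to 3.85 in Q140, 1.28 to 3.43 in Msh3-/- and 1.37 to 2.86 in Msh3-/- X Q140 animals. Here WT was the low group: the Msh3-/- mean was 2.19 CPM, above the WT mean, and the Msh3-/- and Q140 animals overlapped. The other 7 of the 10 peaks of largest D1 were nearest to Nudt12, 5031434C07Rik, 4930429H19Rik, Triml1, Edem1, Oscar and Myom2, with D1 from 1.43 to 1.56 and D2 from 0.13 to 0.28. In 5 of these 7 the peak was intergenic.

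Among activity-regulated genes, with 293 eligible peaks and 2 gained, 1 peak was in the set (0.341%, against 0.409% of all eligible peaks). It was nearest to Bdnf, the brain-derived neurotrophic factor gene. Its peak (chr2:109677960-109678627, intron, 1.26 kb from a start) had 2.48 to 3.47 CPM in WT, 5.05 to 6.67 in Q140, 2.64 to 4.35 in Msh3-/- and 2.26 to 4.46 in Msh3-/- X Q140 animals. The Q140 animals were above all others.

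Of all eligible peaks, 0.409% were in the set, and the other neuronal lists are given beside that share. Potassium channel genes had 2 of 717 eligible peaks (0.279%, Kcnb2 and Kcnk9), with 20 gained. Among glutamate receptor and postsynaptic genes, with 1308 eligible peaks and 23 gained, the set included peaks nearest to Grik2 and Grik4. Axon guidance and adhesion genes had 7 of 1159 (0.604%, Slitrk6, Slitrk5, Efna5, Cdh4, Sema3e, Cntnap2 and Cntn5), with 48 gained. Striatal projection neuron identity genes had 0 of 1022, with only 5 gained (0.489%, against 1.82% of all eligible peaks). The list of Polycomb subunits, which does not hold Sfmbt2 and its chosen peaks, had 0 of 174. These are too few peaks for the 0 to be read against that share. The Slitrk6 peak (chr14:110112261-110112852, D1 1.11, D2 0.03), near a gene for a transmembrane protein of neurite growth, ran from 4.49 to 6.40 CPM in Q140 and from 2.90 to 4.26 in Msh3-/- X Q140 animals without overlap. The Grik2 peak (D1 1.19, D2 0.19), near a kainate receptor subunit gene, lay 1344 kb from its start.

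**Figure D4:**
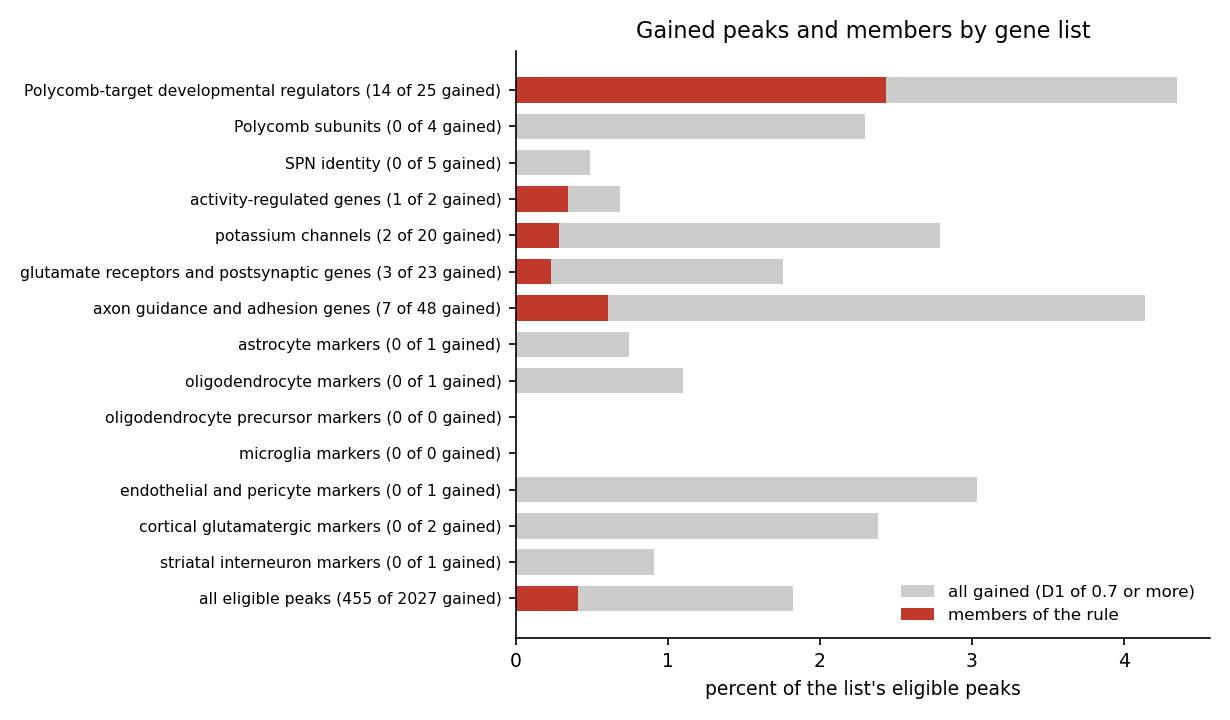
Percent of each gene list's eligible peaks that were gained (grey, D1 of at least 0.7) and in the set (red), with counts beside the names. The developmental list has 14 of 25 gained peaks in the set and axon guidance 7 of 48, against 455 of all 2027 gained peaks. The lists were chosen with earlier results of these data known, so the shares are descriptions.

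Promoter peaks were few: 10 of 455 (2.20%), against 8.34% of eligible peaks and 0.891% of other gained peaks. Besides Onecut1, the promoters of largest D1 were Pgpep1l (chr7:68264556-68264998, D1 1.08), Cpt2 (chr4:107923153-107924044, D1 0.96), 1700029J03Rik (chr16:93459164-93459671, D1 0.91) and Txnip (chr3:96557592-96558029, D1 0.89). Cpt2 encodes a mitochondrial enzyme of fatty acid import, and its peak had 2.48 to 5.62 CPM in WT, 6.65 to 10.7 in Q140, 3.85 to 7.05 in Msh3-/- and 3.77 to 6.99 in Msh3-/- X Q140 animals. Txnip encodes the thioredoxin-interacting protein, and its Q140 animals (4.93 to 8.28 CPM) overlapped its Msh3-/- X Q140 animals (3.68 to 6.22 CPM).

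The strongest peak of the set was the exception in size. It spans 3449 bases in intron 3 of Tsnax (chr8:125020282-125023730), the gene of the translin partner TRAX, and averaged 92.3 CPM over the 24 libraries. Its CPM was 47.3, 59.4 and 89.5 in WT and 113, 127 and 203 in Q140. It was 64.3, 77.7 and 91.7 in Msh3-/- and 71.7, 87.1 and 103 in Msh3-/- X Q140. All Q140 animals were above all others, and the Msh3-/- X Q140 animals overlapped the Msh3-/- animals. The next by level were peaks nearest to Slc30a5, Gramd3, Cdh4 and Nup214, with D1 from 0.75 to 0.99 and D2 from 0.08 to 0.20.

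By position the set resembled the other gained peaks in part. Intergenic peaks made up 56.5%, against 58.1% of other gained and 35.5% of eligible peaks, and introns 39.6%, against 39.4% and 47.2%. Peaks of the set lay a median of 59.1 kb from the nearest start, against 84.2 kb in other gained and 26.7 kb in eligible peaks. Peaks over 100 kb from a start were 35.6% of the set, 44.8% of other gained and 20.5% of eligible peaks. The median width was 448, 495 and 474 bases in the same order, and 12.3%, 10.8% and 19.1% were annotated to a repeat. The peaks were spread over 431 nearest genes, and 13 neighbouring pairs lay within 100 kb of each other, among them 2 pairs at Sfmbt2 and 2 at Cpxm2. Non-member peaks within 25 kb of the set (1117) had a median D1 of 0.10 and D2 of 0.03, against 0.02 and 0.00 in all eligible non-members.

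The choice was next made in animals of 1 sex and read in animals of the other, which the choice had not used. In females the rule chose 998 peaks, with a median D1 of 0.82 and D2 of -0.01. In males the same peaks had a median D1 of 0.47 and D2 of 0.17, and 103 (10.3%) met both limits. The other 1754 peaks gained in females had a D1 of 0.75 and D2 of 0.31 in males, and 222 (12.7%) met both limits, against 0.986% of all eligible peaks. The 1054 peaks chosen in males read 0.52 and 0.24 in females, where 102 (9.68%) met the rule, against 197 of 1700 other gained peaks (11.6%). Read in animals not used for the choice, then, chosen peaks had a smaller Q140 difference than the other gained peaks and a D2 above 0, and did not meet the rule more often. As a ratio of medians, D2 was 0.36 of D1 in males and 0.47 in females for the chosen peaks, and 0.42 and 0.50 for the others. Without the library labelled Q140 F2, the peaks chosen in females had a D1 of 0.20 in males, where 6.29% of them met the rule, against 12.2% of other gained peaks. Without Msh3-/- X Q140 M1 these shares were 6.51% and 6.73%, and without both libraries 3.91% and 6.15%. For peaks chosen in males and read in females, the share of chosen peaks was 9.30%, 8.77% and 8.91% in the same order, and D1 was 0.50, 0.47 and 0.45.

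The Msh3-/- level was read in the same way. Over the 455 peaks Msh3-/- exceeded WT by a median of 0.27 on the log2 scale, in 438 peaks, against 0.12 in other gained peaks and -0.01 in eligible peaks. In animals of the sex not used for the choice, the difference was 0.01 in males and 0.01 in females, against 0.12 and 0.04 for other gained peaks. With TMM library sizes it was 0.07 in males and 0.00 in females, against 0.15 and 0.03. Without the library labelled Q140 F2 in the choice, the difference in males was -0.07.

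**Figure D5:**
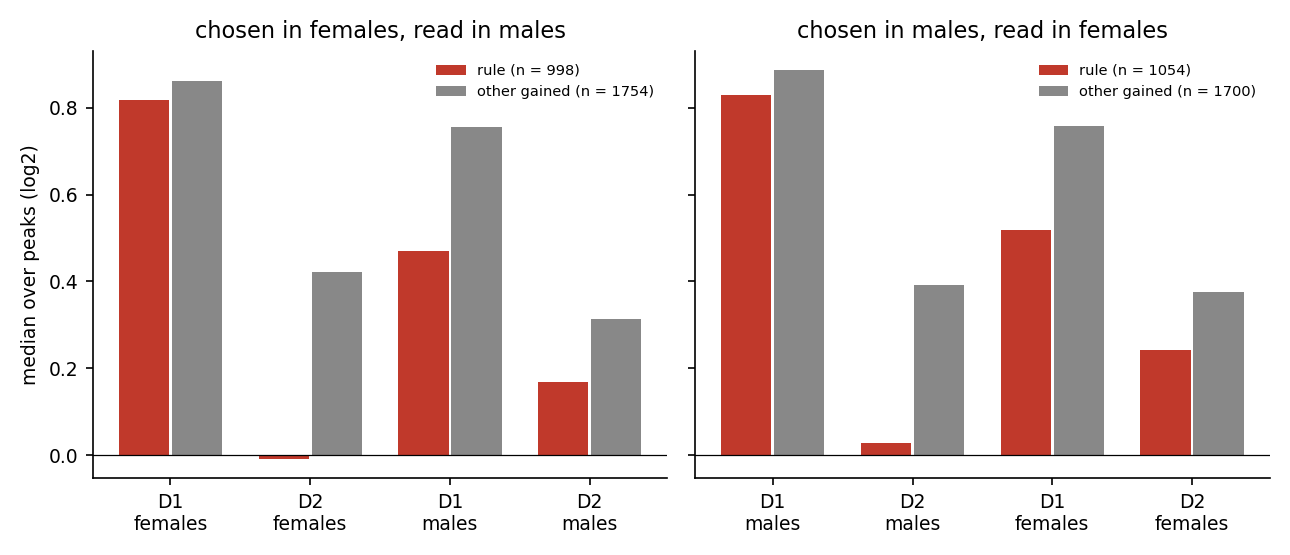
Median D1 and D2 (log2) of peaks chosen by the rule in 1 sex (red) and of the other peaks gained in that sex (grey), in the animals used for the choice and in those of the other sex. D2 of chosen peaks goes from -0.01 to 0.17 and from 0.03 to 0.24 between the animals used and not used.

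The rule chose 98 peaks in each sex separately. All 98 are in the set, which largely follows from the rule, since each group mean averages the female and male means. Peaks chosen in females met both limits in males in 10.3%, against 12.7% of other gained peaks, so the 98 are a description. Their number was 89 without the library labelled Q140 F2 (77 of them among the 98), 61 without Msh3-/- X Q140 M1 (57) and 57 without both (44). The 98 hold 5 peaks of the developmental list (both Onecut1 peaks, Hoxc8, Emx2 and Cdkn2b), with Tnr, Galc, 5031434C07Rik, Bdnf, Slitrk6, Slitrk5, Efna5, Gm26688 and Sfmbt2. Leaving out each library in turn gave 350 (without Msh3-/- X Q140 M1) to 635 peaks (without Msh3-/- X Q140 M3), and 119 of the 455 (26.2%) were chosen every time.

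Peaks of the developmental list were read across sexes without D2 in the choice. Of the list, 38 peaks were gained in females, and in males their median D1 was 0.77 and D2 0.17. Their D2 was within 0.2 times D1 in 19 of 38, against 28.5% of 2714 other peaks gained in females. For the 29 gained in males and read in females, D1 was 0.80 and D2 0.13, with 15 (51.7%) within the limit, against 23.1% of 2725. Without the library labelled Q140 F2, D1 in males was 0.43 for the list. The males read here include Msh3-/- X Q140 M1, and the list's D2 without it is not given. Leaving that library out raised D2 in males for the peaks chosen by the rule in females, from 0.17 to 0.22. For the other peaks gained in females it went from 0.31 to 0.43. These shares are descriptions, since the list was chosen with earlier results known.

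No peak of the set passed the test for sex. With edgeR's quasi-likelihood test 0 of 455 peaks differed between females and males (of all peaks 0.0965% were higher and 0.0725% lower in females), with 28 at an unadjusted p under 0.05 and 0 by DESeq2. The median difference was 0.00 on the log2 scale. Without the library labelled Q140 F2, without Msh3-/- X Q140 M1 and without both, 0 were called again, with 24, 27 and 24 at an unadjusted p under 0.05. No peak of the set had a Q140 difference that depended on sex (0 by edgeR and DESeq2, with 16 at an unadjusted p under 0.05), and 0 of all peaks did by edgeR. Without the same libraries, again 0 were called by edgeR, with 18, 15 and 18 at an unadjusted p under 0.05. With 3 animals of each sex per genotype the median standard error of that interaction was 0.41 on the log2 scale, beside a median D1 of 0.84.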

How the data were processed

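ATAC-seq of NeuN-sorted striatal nuclei was measured in 24 mice. The authors deposited 1 table of raw read counts per peak for a combined peak set on GRCm38, with an annotation of each peak; the tools named in the submitters' processing notes are featureCounts, MACS2, BWA, Picard and SAMtools, with versions and settings not given in the sources used here. Whether insertion positions were shifted for the transposase is also not given. Reads that fall outside peaks are not in the counts, so depth here means counts in peaks.

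CPM was computed from column sums. All 24 libraries entered edgeR 4.0.16 (R 4.3.3) with TMM scaling, filterByExpr at a minimum count of 10, and genotype and sex as terms; sex by genotype cells were fitted for the Q140 effect by sex. DESeq2 1.42.0 was an alternative. The fit was tested on simulated data. Replicate numbers were not used as pairs. The members and gene lists were chosen with earlier results of these data known; the interaction, the sex-split reading of the developmental list and the fits and sex-split choices without single libraries were added after seeing the data. Peaks named were the 10 of largest D1, the 5 of highest CPM, the 5 promoters of largest D1, the top member of each list and the 2 on each side of each limit. Other peaks named (all members of the developmental list, CpG island peaks, interaction calls and close pairs) were singled out after their values were seen. Motifs could be searched in RefSeq promoter windows only. One peak of the set is not reported here by name.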

Additional observations from a re-analysis of the deposited data

Results flagged for a closer look

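The 128 groups of 6 animals examined were those of each genotype at the named peaks and for the mean level of the set. In 13 of them, all at named peaks, an animal had a CPM far from the others. By chance about 1 in 20 would. In WT, F2 was highest at Edem1 (4.61, others 2.27 to 2.89) and at Trib2 (3.87, others 1.26 to 2.17). In Q140, F1 was lowest at Tnr (4.52, others 6.42 to 6.93), and M3 was highest at Triml1 (7.25, others 3.39 to 4.66). F3 was highest in Q140 at Edem1 (13.0, others 6.90 to 8.89) and at Tsnax (203, others 113 to 131), and M2 at Mettl15 (6.61, others 2.22 to 3.80). In Msh3-/-, F3 was lowest at Nudt12 (0.850, others 1.89 to 2.43) and highest at 5031434C07Rik (6.27, others 3.42 to 4.39), F1 was highest at Cpt2 (7.05, others 3.85 to 4.84), and F2 at Grik2 (3.43, others 0.850 to 1.72). In Msh3-/- X Q140, M3 was highest at Slc30a5 (41.7, others 27.0 to 31.1) and M2 lowest at Kcnb2 (2.51, others 3.26 to 3.55).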

How the results depend on the processing

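The number of peaks chosen depends on the rule's settings. It was 455 as reported, 695 with 0.1 CPM added, 285 with 1 CPM added, 732 with a minimum of 1 CPM, 77 with a minimum of 5 CPM, 109 with D2 at most 0, 1117 with D2 up to 0.4 times D1, 998 in females and 1054 in males, and 350 to 635 with 1 library left out. TMM library sizes gave 386, 379 of them shared with the 455. Peaks lower in Msh3-/- X Q140 than in Q140 went from 104 to 22 without Q140 F2 and Msh3-/- X Q140 M1 together, and to 49 to 52 without either alone. Those higher than in WT went from 8 to 16 without both, and ranged from 7 to 18 without either. Interaction calls went from 11 to 18 with total count scaling, 22 with DESeq2, 4 without both libraries and 4 without each alone. The median D1 in males of peaks chosen in females went from 0.47 to 0.20 without both libraries, ranging from 0.20 to 0.47 without each alone. Deviations of same-numbered animals correlated at -0.46 to 0.50 (36 pairs, median 0.03, 13 over 0.1). The F3 animals correlated at 0.33 to 0.50 among WT, Q140 and Msh3-/-, but at -0.46 to -0.21 with Msh3-/- X Q140. Differently numbered animals were not compared, so whether the number marks a pairing or a batch is not settled. With the replicate block, calls were 454 for Q140 against WT, 119 for Msh3-/- X Q140 against Q140, 10 against WT and 15 for the interaction. Of 186 values of the named peaks under the alternatives, D1 reversed in 0 and 1 value moved by more than 1 SD, the D2 of Grik2, which reached 0.47 with 1 library left out. At a median of 25 counts per peak and library, D1 of single weak peaks is imprecise.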
